A study of Mus musculus with 16 samples.

Results

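Sleep disruption (SD) was compared with undisturbed rest in the somatosensory cortex of AcPb-/- mice, gene by gene. The comparison rested on 3 undisturbed control libraries (replicates 03, 04 and 05) and 3 SD libraries (replicates 02, 03 and 04), 1 mouse each according to the labels. Every gene with any read in these 6 libraries was taken, which gave 20574 of the 24421 genes in the deposited table and left out 3847 without a read. AcPb-/- mice lack the brain isoform of the interleukin-1 receptor accessory protein. All mice compared were homozygous offspring, aged 2 to 3 months, of lines that came from Jackson Laboratories and were then bred on site, and the labels name neither a Cre nor a transgene. They call the founders male and give no sex per sample, while the study's methods call the wild-type mice male. SD lasted 8 h by gentle handling, from zeitgeber time (ZT) 20 to ZT4, where ZT0 is light onset. Controls were left alone, and both groups were collected at ZT4. Wild-type mice given the same treatment, with 3 control and 3 SD libraries, served for comparison only. Nothing in the labels tells whether libraries of a group came from separate cages or days, so p-values measure the spread between these samples.

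Interleukin-1 acts on cells through its receptor and an accessory protein encoded by Il1rap, and neurons also make an isoform of that protein, AcPb, which modifies the response of the neuron. Wakefulness is known to raise synaptic activity in the cortex, and enforced wakefulness also raises stress hormone. Genes induced by neuronal firing, chaperones, glucocorticoid-induced genes and clock genes are therefore commonly followed after sleep loss.

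The libraries differed in more than treatment. Reads on genes ranged from 26504840 to 35683409 in controls and from 63413467 to 71857505 after SD, so depth and SD cannot be told apart by group, and thinning all libraries to the smallest total gave 5120 called genes in place of 5633. Xist, the RNA of the inactive X chromosome in female cells, had 12, 25352 and 30306 reads in controls 03, 04 and 05 and 13, 10 and 5 reads in SD 02, 03 and 04. Reads of 4 genes of the Y chromosome, Uty, Kdm5d, Eif2s3y and Ddx3y, summed to 5105, 2 and 0 in controls and 9093, 9860 and 10152 after SD. Thus controls 04 and 05 carried Xist and lacked Y-linked reads, and only control 03 was like the SD libraries in this respect, so SD and sex-linked expression were in part confounded. Of the 5633 genes called below, 180 lay among the 724 tested genes of the X and Y chromosomes. A term for Xist in a joint fit with the wild-type libraries, where 2 of 3 controls also carried Xist, left 5189 called genes, of which 4349 were shared with the 5633. Within the 6 libraries the same term left 1672 genes, 1520 of them shared. Its part in any single result was not tested beyond these fits, and the count from this joint fit with Xist is given with the gene lists below. In SD 04, markers of choroid plexus summed to 17748 normalized counts, against 255 to 568 in the other 5 libraries, and neutrophil markers summed to 927 against 27.9 to 154. With limma 0 of 6 choroid plexus markers were called (1 at an unadjusted p under 0.05, and 1 called by each of DESeq2 and edgeR), and 0 of 6 neutrophil markers (0 at an unadjusted p under 0.05, and 0 by DESeq2 and edgeR). Without SD 02, however, 3 neutrophil markers were called higher, and without SD 03 1 choroid plexus marker was. The part of these cells in the results was not tested. The deletion itself could not be checked, because counts per gene do not separate the AcPb isoform from the rest of Il1rap, and Il1rap reads were present in all 6 libraries.

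Many genes differed in level between the SD and control libraries. With limma's moderated test on log2(normalized count + 1), 5633 of 20574 genes (27.4%) passed an adjusted p of 0.05 (called genes), 2892 higher (14.1%) and 2741 lower (13.3%) after SD. A normalized count is the read count divided by the library's size factor. The changes were small in most genes, with a median absolute log2 fold change of 0.43 among called genes. At least 2-fold changes were found in 242 higher and 257 lower genes. In 8711 genes (42.3%) the 3 SD libraries lay all above or all below the 3 controls, 4458 above and 4253 below. Among them were 5597 of the 5633 called genes. Groups that do not overlap are thus usual for called genes and add no support to a call. The median log2 fold change over all genes was 0.01. Only 157 called genes had a mean under 10 normalized counts. Without SD 02 the count fell to 3393, without control 04 to 3417 and without SD 04 to 3575.

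**Figure D1:**
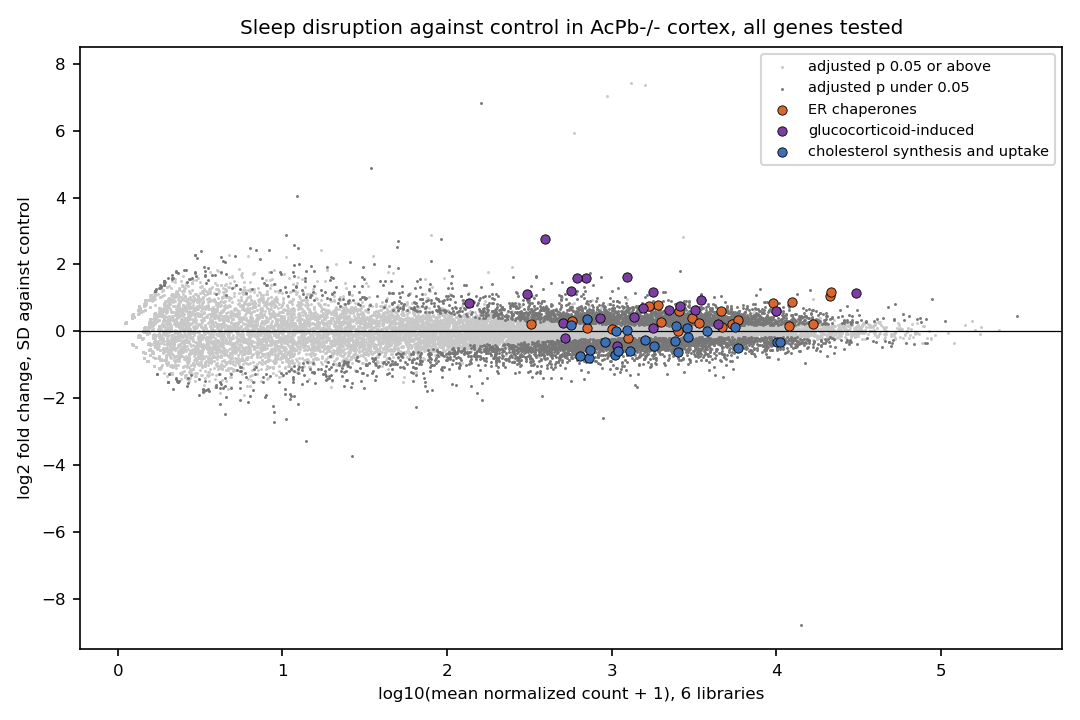
Log2 fold change of SD against control (y axis) against the log10 of the mean normalized count plus 1 over the 6 AcPb-/- libraries (x axis), 1 point per gene, dark grey for adjusted p under 0.05. Endoplasmic reticulum (ER) chaperones and glucocorticoid-induced genes lie mostly above 0 and cholesterol genes mostly below, with medians of 0.29, 0.74 and -0.31. The lowest point is Xist.

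The highest gene was Gh, growth hormone (chr11:106300271-106301865, coordinates on GRCm38 throughout). It was listed at 0 in all 3 controls and had 5.28, 426 and 529.8 normalized counts in SD 02, 03 and 04, at least 225-fold higher against a floor of 3 reads over the control group. Prl, prolactin, the other main hormone of the anterior pituitary, was at 0 in the controls too and at 1.51, 104 and 94.5 after SD (adjusted p = 0.0204). Both hormones were near the floor in SD 02 and high in SD 03 and SD 04. Prl was named after its values were seen, and it missed the threshold without control 04, SD 03 or SD 04 (adjusted p 0.0649 to 0.0753).

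Plin4, a coat protein of lipid droplets (chr17:56100591-56109803), had 73.4, 115 and 103 normalized counts in controls 03, 04 and 05 and 879, 430.2 and 752 in SD 02, 03 and 04 (log2 fold change 2.77, SE 0.27, adjusted p = 0.00061). All values below follow this order of libraries. The lowest SD library, SD 03, still exceeded the highest control by a wide margin. Timp1, a secreted inhibitor of metalloproteinases (chrX:20870166-20874735), had 37.96, 42.9 and 52.2 in controls and 174, 139 and 168 after SD (log2 fold change 1.84, SE 0.19, adjusted p = 0.000716). Cdr1 (chrX:61184005-61185558), which lies on the strand opposite an annotated noncoding gene, had 1025, 874 and 1668 in controls and 4274, 4238 and 3567 after SD (log2 fold change 1.81, SE 0.21, adjusted p = 0.000964). The groups did not overlap in either gene. Car12, a membrane carbonic anhydrase (chr9:66713686-66766845), had 447, 338 and 231 in controls and 967, 836 and 1589 after SD (log2 fold change 1.73, SE 0.28, adjusted p = 0.00294). Among the SD libraries SD 04 was the highest. Rasd1, a small GTPase induced by glucocorticoid (chr11:59963181-59964944), had 143, 168 and 183 in controls and 623, 328 and 642 after SD (log2 fold change 1.63, SE 0.24, adjusted p = 0.00229). SD 03 was again the lowest of the SD libraries, as for Plin4. The other 4 of the 10 highest were Snora81 (1.66, adjusted p = 0.000938), Serinc2 (1.64, adjusted p = 0.00112), Plekhg4 (1.62, adjusted p = 0.000445) and Prg4, lubricin (1.62, adjusted p = 0.00367). Snora81 is a small nucleolar RNA that lies wholly within Eif4a2, and all of its stretches of 100 bases are shared with that gene.

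At the other end, Nptxr, the membrane-bound pentraxin receptor of synapses (chr15:79786351-79804766), had 1077, 2327 and 1149 in controls and 195, 191 and 346 after SD (log2 fold change -2.59, SE 0.32, adjusted p = 0.00112). Control 04 was the highest, and every SD library was below every control. Nptxr shares 15.7% of its 100-base stretches with the overlapping gene Npcd, so reads may have been split between them. Hes5, a transcriptional repressor and target of Notch (chr4:154960923-154962371), had 542, 718 and 523 in controls and 152, 147 and 160.1 after SD (log2 fold change -1.94, SE 0.14, adjusted p = 0.000444). The 3 SD libraries lay close together. Bace2, a protease related to the beta-secretase (chr16:97356742-97442936), had 191, 264 and 253 in controls and 61.8, 77.5 and 57.3 after SD (log2 fold change -1.83, SE 0.19, adjusted p = 0.000692). Dbp, a clock output transcription factor (chr7:45705088-45710203), had 1433, 2037 and 2814 in controls and 554, 956 and 560.2 after SD (log2 fold change -1.59, SE 0.27, adjusted p = 0.00353). The controls spread about as widely as the SD libraries, and the groups did not overlap. Atp5e, a subunit of mitochondrial ATP synthase (chr2:174461072-174464105), had 1905, 2181 and 2403 in controls and 521, 901 and 682 after SD (log2 fold change -1.65, SE 0.18, adjusted p = 0.000851). The remaining 5 of the 10 lowest were Olfr78 (-1.62, adjusted p = 0.00294), Samd3 (-1.61, adjusted p = 0.00128), Cenpw, a kinetochore protein (-1.56, adjusted p = 0.000938), Amn (-1.54, adjusted p = 0.000782) and Tmem160 (-1.48, adjusted p = 0.000444). Olfr78 shares 12.8% of its 100-base stretches with the overlapping Olfr560. With any 1 library left out, all 10 kept an adjusted p under 0.05, as did the 10 highest.

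**Figure D2:**
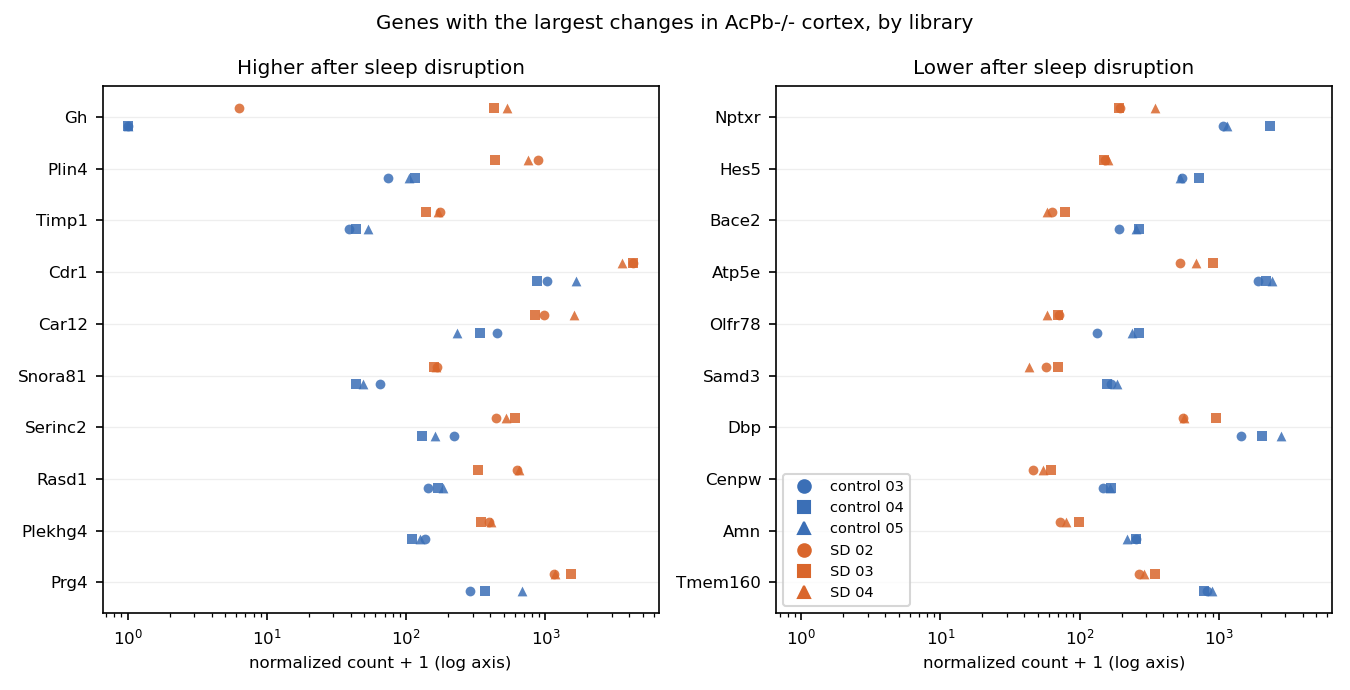
Normalized count plus 1 on a log axis for the 10 highest (left) and 10 lowest (right) called genes with a mean of at least 100, 1 point per library, blue for controls and orange for SD, with marker shapes for replicates. The orange and blue points do not cross in any of the 20 genes, as in 5597 of all 5633 called genes, so this is no added support. Gh is at 0 in the 3 controls and at 5.28 in SD 02.

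Gene lists were then counted against the shares of all genes tested (14.1% higher, 13.3% lower). ER chaperones, heat shock proteins, glucocorticoid-induced genes and activity-dependent effectors stood above the share called higher, and genes of cholesterol synthesis, ribosomal proteins and oxidative phosphorylation subunits above the share called lower.

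**Figure D3:**
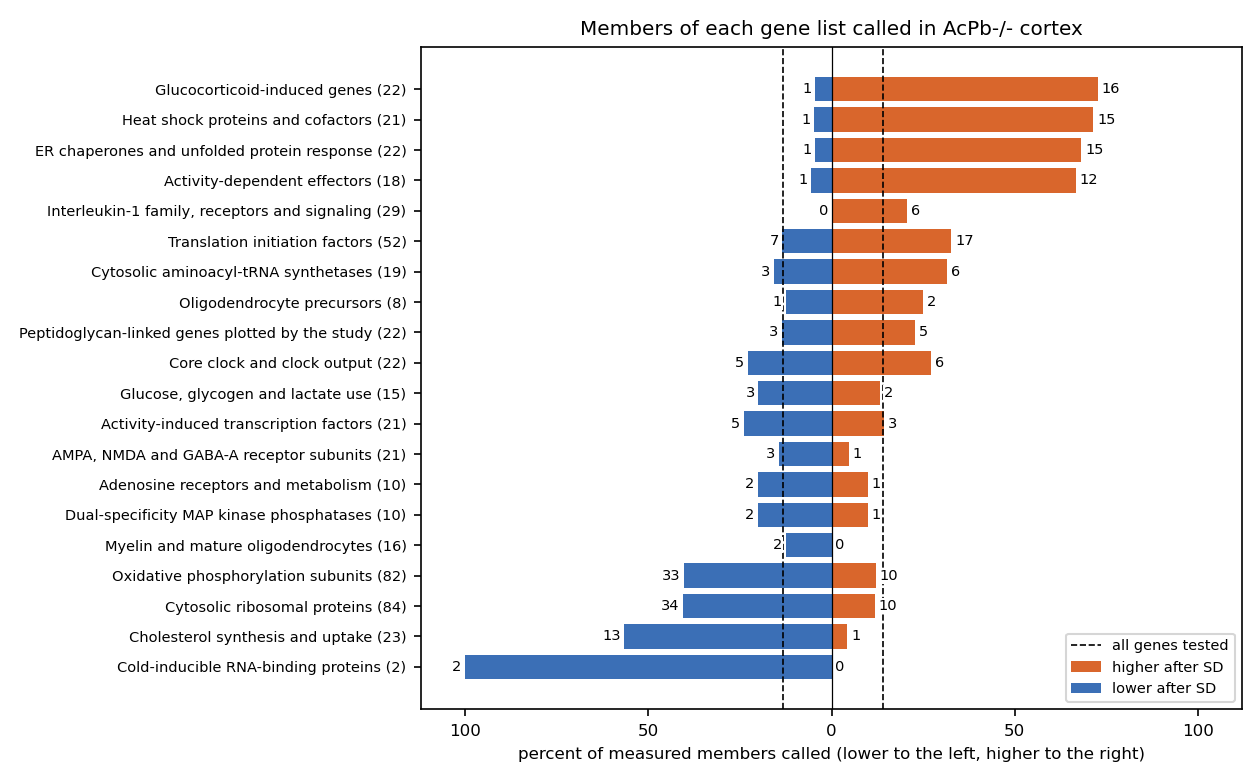
Percent of the measured members of each gene list (number in parentheses) called higher (orange, to the right) and lower (blue, to the left) after SD, with the number called at the end of each bar and dashed lines at the shares of all genes tested, 14.1% and 13.3%. The longest orange bars are those of glucocorticoid-induced genes (16 of 22), heat shock proteins (15 of 21) and ER chaperones (15 of 22).

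Most chaperones of the ER rose. ER chaperones bind proteins entering the secretory pathway and are induced when unfolded proteins accumulate. Of 22 measured genes of the list, 15 were called higher and 1 lower, with a median log2 fold change of 0.29 against 0.01 over all genes, and 12 higher and 0 lower in the joint fit with Xist. Hspa5, the main ER chaperone BiP (chr2:34771970-34777547), had 9259.6, 8622 and 8572 in controls and 15623, 15440.5 and 17271 after SD (log2 fold change 0.87, SE 0.07, adjusted p = 0.000444). Hsp90b1, its partner Grp94 (chr10:86690209-86705509), had 13675, 14520.3 and 13289 in controls and 28334, 27428 and 30595 after SD (log2 fold change 1.06, SE 0.07, adjusted p = 0.000444). Calr, the lectin chaperone calreticulin (chr8:84841850-84846934), had 14130.5, 13510.5 and 12084 in controls and 30885, 27337 and 31096 after SD (log2 fold change 1.17, SE 0.08, adjusted p = 0.000444). In all 3 genes the SD libraries lay close together, far above the controls. The oxidoreductase Pdia3 (0.84, adjusted p = 0.000444) and the secreted stress factor Manf (0.75, adjusted p = 0.00061) rose too. The transcription factor Xbp1 rose by less, to 3624, 3775 and 3759 from 2901, 3232 and 3190.0 (log2 fold change 0.26, SE 0.06, adjusted p = 0.0141). The 1 lower member was Edem1, which sends misfolded glycoproteins for degradation (-0.21, adjusted p = 0.0466). With 1 library left out, calls were lost for Xbp1 without SD 04 (0.0553) and for Edem1 without control 04, control 05, SD 02 or SD 04 (0.107 to 0.162), with adjusted p in parentheses here and below, and between 10 and 13 members were called higher.

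Promoter sequence was read for the ER list because most of its members rose. The ER stress response element (ERSE) is CCAAT, 9 bases of any kind and CCACG, searched on both strands from 250 bases before to 50 after the start of each gene in RefSeq, GRCm38.p6. Windows of 300 bases were found for 14834 tested genes, and 23 of them (0.155%) held the element. It was in 7 of the 19 ER list genes with a window (36.8%), namely Calr, Canx, Creld2, Dnajc3, Hsp90b1, Hspa5 and Pdia6, and all 7 were called higher. The element is named for ER stress and the list holds genes of the unfolded protein response. This share is therefore a description and no independent test. With 1 library left out, calls were lost for Creld2 without control 03, control 04, SD 03 or SD 04 (0.0505 to 0.073) and for Canx without control 03, control 04, control 05 or SD 04 (0.065 to 0.118). Over all windows it was in 10 of 2226 genes called higher, 7 of them ER list members, and in 0 of 2039 called lower. The rest of the 23 genes with the element were not called, with log2 fold changes from -1.37 (Xlr3b) to 0.57 (Acnat2). The other 3 called higher were Derl3, which moves misfolded proteins out of the ER (1.16, adjusted p = 0.00319), Zfp57 (0.41, adjusted p = 0.0286) and Pan2 (0.23, adjusted p = 0.0329), all 3 named after their values were seen. The call ended for Zfp57 without control 03, control 04, control 05, SD 02 or SD 04 (0.0525 to 0.112) and for Pan2 without control 04, control 05, SD 02 or SD 03 (0.0654 to 0.122). The windows of the 3 members with the largest fold changes are shown 5′ to 3′, with the element in capitals, as examples of where it lies. Those of Hspa5 (chr2:34771840-34772139, plus strand), Hsp90b1 (chr10:86705395-86705694, minus strand) and Calr (chr8:84846882-84847181, minus strand) hold 1, 2 and 1 copies.
Hspa5: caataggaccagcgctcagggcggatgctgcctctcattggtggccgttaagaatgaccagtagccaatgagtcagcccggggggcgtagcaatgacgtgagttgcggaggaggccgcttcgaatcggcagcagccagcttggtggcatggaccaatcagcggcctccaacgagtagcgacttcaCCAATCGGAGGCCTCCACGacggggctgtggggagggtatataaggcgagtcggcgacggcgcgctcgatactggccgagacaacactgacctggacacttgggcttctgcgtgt
Hsp90b1: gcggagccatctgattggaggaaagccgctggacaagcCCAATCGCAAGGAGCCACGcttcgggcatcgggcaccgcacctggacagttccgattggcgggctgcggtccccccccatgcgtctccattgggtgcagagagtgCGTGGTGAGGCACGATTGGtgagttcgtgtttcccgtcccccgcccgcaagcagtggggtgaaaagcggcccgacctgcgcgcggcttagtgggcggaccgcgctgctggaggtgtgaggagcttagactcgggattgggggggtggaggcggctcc
Calr: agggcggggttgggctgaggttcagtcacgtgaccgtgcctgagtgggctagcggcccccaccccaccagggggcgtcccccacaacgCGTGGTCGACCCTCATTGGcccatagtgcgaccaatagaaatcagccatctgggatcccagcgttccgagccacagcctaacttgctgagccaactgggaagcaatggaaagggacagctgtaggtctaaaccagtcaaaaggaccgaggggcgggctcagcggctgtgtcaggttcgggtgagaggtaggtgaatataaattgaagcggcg

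Most heat shock proteins rose as well. These chaperones and their cofactors fold proteins in the cytosol and mitochondria under the control of heat shock factors. Of 21 measured members 15 were called higher and 1 lower (median log2 fold change 0.42), and 14 higher and 1 lower in the joint fit with Xist. Hspa8, the constitutive Hsc70 (chr9:40800984-40810087), had 63572, 60281 and 55625 in controls and 119585, 110803 and 123449 after SD (log2 fold change 0.98, SE 0.09, adjusted p = 0.00061). Pseudogenes hold copies of 28.2% of its 100-base stretches. Hsph1, an Hsp110 nucleotide exchange factor (chr5:149614287-149636376), had 13858, 14623 and 13639 in controls and 26803, 25756 and 29358 after SD (log2 fold change 0.96, SE 0.07, adjusted p = 0.000444). Chordc1, an Hsp90 co-chaperone (chr9:18292125-18317442), had 2172, 1970.0 and 2053 in controls and 3874, 3596 and 4041 after SD (log2 fold change 0.89, SE 0.07, adjusted p = 0.000444), and Stip1, which links Hsp70 to Hsp90, also rose (0.87, adjusted p = 0.000444). None of these groups overlapped. Hspbp1, which strips nucleotide from Hsp70 and restrains it (chr7:4660521-4685068), moved the other way, from 2847, 2477 and 2510.2 to 1423, 1674 and 1563 (log2 fold change -0.75, SE 0.08, adjusted p = 0.000888). The heat shock element, written as GAA, 2 bases, TTC, 2 bases and GAA on either strand, was in 99 of the 14834 windows (0.667%) and in 4 of the 16 of this list (25%), those of Chordc1, Hspd1, Hspe1 and Hsph1. The windows of Hspd1 (chr1:55087883-55088182, minus strand) and Hspe1 (chr1:55087898-55088197, plus strand) overlap, so these 4 genes are not 4 separate promoters. Over all windows the element was in 18 of 2226 genes called higher (0.809%) and in 12 of 2039 called lower (0.589%), near the 0.667% of all genes. Its share in this list is a description only. The window of Chordc1 (chr9:18292017-18292316, plus strand) is shown as it held 3 overlapping matches at the start site, which the capitals cover as 1 block.
Chordc1: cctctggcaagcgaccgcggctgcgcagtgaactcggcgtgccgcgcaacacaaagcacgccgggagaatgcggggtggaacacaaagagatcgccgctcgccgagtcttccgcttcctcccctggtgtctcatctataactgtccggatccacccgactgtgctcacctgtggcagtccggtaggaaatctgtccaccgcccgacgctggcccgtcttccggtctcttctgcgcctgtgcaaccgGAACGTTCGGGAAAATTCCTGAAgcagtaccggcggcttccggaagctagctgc

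Both cold-inducible RNA-binding proteins fell. These proteins bind mRNA and are known to rise when brain or body temperature drops. Cirbp (chr10:80165985-80172786) went from 2888, 3174 and 3138 to 1229, 1401 and 1190.1 (log2 fold change -1.27, SE 0.08, adjusted p = 0.000444). Rbm3 (chrX:8138975-8145880) went from 2183, 2591 and 2629.7 to 1809, 1833 and 1691 (log2 fold change -0.47, SE 0.08, adjusted p = 0.00423), and in the joint fit with Xist it had an adjusted p of 0.0916, while Cirbp was called there too. The groups did not overlap in either gene.

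Genes induced by glucocorticoid, the adrenal stress hormone, mostly rose. Of 22 measured members 16 were called higher and 1 lower, with a median log2 fold change of 0.74, and 16 higher and 0 lower in the joint fit with Xist. Fkbp5, a chaperone that restrains the glucocorticoid receptor (chr17:28399094-28517527), had 1012, 1121 and 1066 in controls and 2976, 1736 and 2742 after SD (log2 fold change 1.18, SE 0.18, adjusted p = 0.0022). Cdkn1a, the cell cycle inhibitor p21 (chr17:29090976-29100727), had 575, 628 and 582 in controls and 2329, 1358 and 1906 after SD (log2 fold change 1.61, SE 0.17, adjusted p = 0.000727). Hif3a, a hypoxia-inducible factor (chr7:17031507-17062427), had 282, 305 and 324 in controls and 1066, 738 and 982 after SD (log2 fold change 1.59, SE 0.14, adjusted p = 0.000531). In these 3 genes the controls were tight and SD 03 was the lowest SD library, as in Plin4. Sult1a1, a sulfotransferase (chr7:126672865-126676432), spread more among controls, at 215, 324 and 536, and was at 1294, 824 and 977 after SD (log2 fold change 1.60, SE 0.30, adjusted p = 0.00549). Tsc22d3, the anti-inflammatory mediator Gilz (chrX:140539528-140600659), showed the same order of controls, at 1803, 2369 and 3039, against 5477, 3989 and 4232 after SD (log2 fold change 0.94, SE 0.18, adjusted p = 0.00652). Sgk1, a kinase of ion transport, was higher as well (0.64, adjusted p = 0.0112), with the call lost without SD 02 (0.0608). Among controls, 03 was the lowest and 05 the highest in Sult1a1, Tsc22d3 and Sgk1. The 1 lower member was Ddit4, an inhibitor of mTOR complex 1 (-0.45, adjusted p = 0.00642), whose adjusted p was 0.0536 in the joint fit with Xist.

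Clock genes moved in both directions. Clock and Arntl (Bmal1) drive the transcription of output genes and of Per and Cry genes, whose products repress them in turn. Of 22 members 6 were called higher and 5 lower, with a median log2 fold change of -0.01, and 7 higher and 3 lower in the joint fit with Xist. Among activators, Arntl (chr7:113207465-113314126) had 2449, 2450.1 and 2549 in controls and 4481, 3399.9 and 3699 after SD (log2 fold change 0.63, SE 0.09, adjusted p = 0.00237), and Clock was higher too (0.35, adjusted p = 0.00775). The controls of Arntl differed by far less than the groups. Among repressors, Per2 (chr1:91415982-91459324) had 1387, 1795 and 2702 in controls and 3872, 3088 and 3661 after SD (log2 fold change 0.90, SE 0.21, adjusted p = 0.0136). Per1 had 3231, 4919 and 7949.6 in controls and 6996, 5634 and 5786 after SD and was not called (adjusted p = 0.485), with control 05 above all SD libraries. Its direction turned without control 03 (log2 fold change -0.03). Nfil3, a repressor of Dbp targets, was higher (0.61, adjusted p = 0.00392). Dbp, described above, Ciart (-0.92, adjusted p = 0.0181) and the nuclear receptor Nr1d1, which represses Arntl (-0.56, adjusted p = 0.00935), were lower. Ciart (chr3:95878503-95882251), a repressor that binds Clock and Arntl, had 424, 592 and 872 in controls and 318, 357 and 281 after SD. The controls of Ciart, Nr1d1 and Dbp were lowest in 03 and highest in 05. Without control 03 the list gave 6 higher and 9 lower, and without control 04 or SD 02 it gave 3 and 4. Leaving out 1 library ended the calls of Per2 without control 04 or SD 02 (0.0552 to 0.0744) and of Ciart without control 04, SD 02 or SD 04 (0.0583 to 0.0754). In the joint fit with Xist, Ciart had an adjusted p of 0.277 and Nr1d1 one of 0.0602. The E-box CACGTG, through which Clock and Arntl act, was in 1497 of 14834 windows (10.1%) and in 5 of the 18 clock windows (27.8%), as a description only. The window of Ciart (chr3:95882179-95882478, minus strand) is shown because it held 3.
Ciart: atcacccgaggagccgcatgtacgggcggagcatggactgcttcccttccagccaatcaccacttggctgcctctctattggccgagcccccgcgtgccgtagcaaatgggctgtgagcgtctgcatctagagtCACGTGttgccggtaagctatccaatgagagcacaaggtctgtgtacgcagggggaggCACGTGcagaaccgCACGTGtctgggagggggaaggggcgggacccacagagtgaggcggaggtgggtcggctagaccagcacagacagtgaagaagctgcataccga

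**Figure D4:**
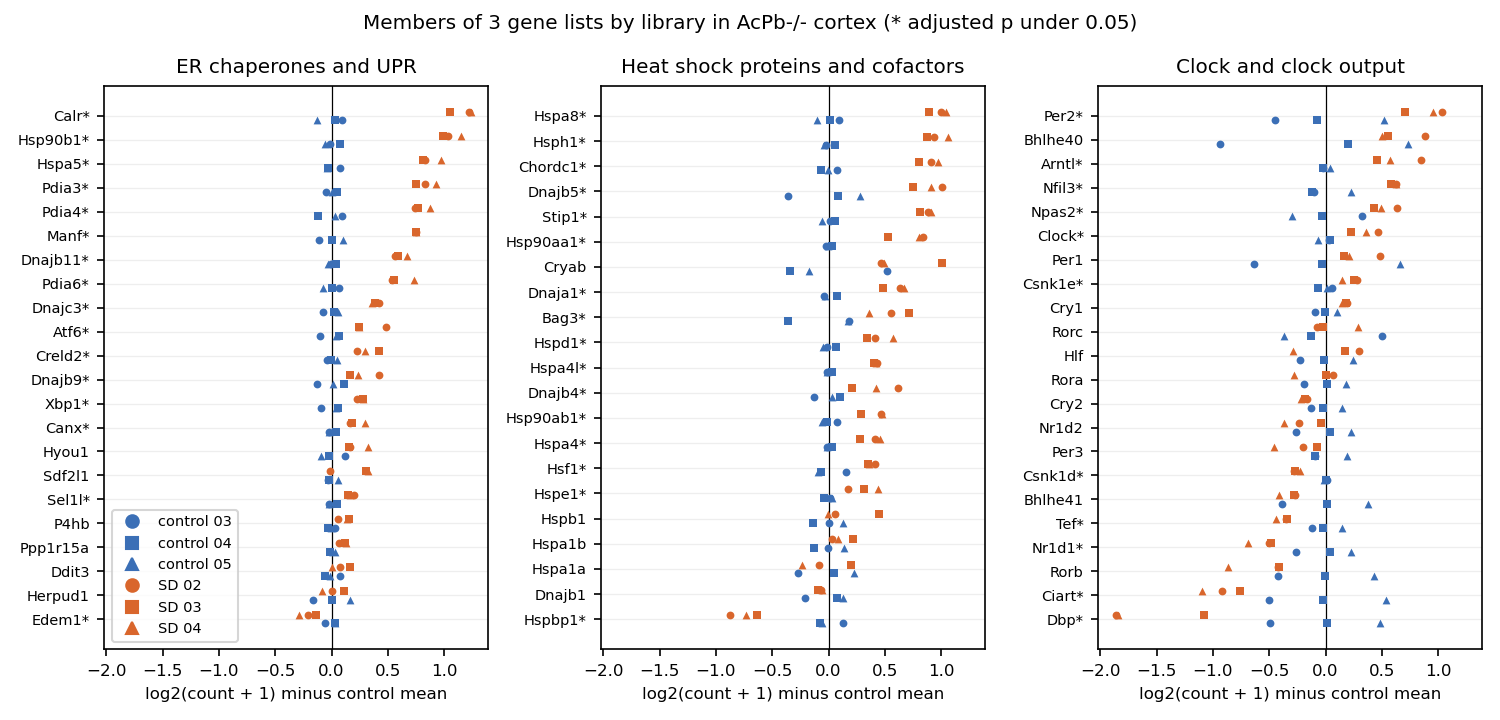
Log2(normalized count + 1) minus the mean of the 3 controls (x axis) for every measured ER chaperone and unfolded protein response (UPR) gene (left), heat shock protein (middle) and clock gene (right), 1 point per library, blue for controls and orange for SD, asterisks for adjusted p under 0.05. Most ER and heat shock genes show tight controls with orange points to the right, and Hspbp1 lies to the left at -0.75, while the controls of Dbp, Ciart, Per1 and Per2 spread from 03 to 05.

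Transcription factors induced by neuronal firing did not move as 1 block. Of 21 members 3 were called higher and 5 lower, with a median log2 fold change of 0.13, and in the joint fit with Xist the counts turned to 9 higher and 3 lower. Egr3 (chr14:70077203-70082614) had 8532, 8938 and 9247 in controls and 19034, 13972 and 16541 after SD (log2 fold change 0.88, SE 0.10, adjusted p = 0.00107). Its relative Egr4 (chr6:85511121-85513589) went the other way, from 1306, 1773 and 1652 to 662, 634 and 742 (log2 fold change -1.21, SE 0.12, adjusted p = 0.000614). Neither gene's groups overlapped. With SD 02 or SD 04 left out the list gave 1 higher and 4 lower, and with control 05 left out 5 and 5. Fosb (0.57, adjusted p = 0.0373) and Fosl2 (0.42, adjusted p = 0.0132), partners of Jun in the AP-1 complex, were higher. The antiproliferative Btg2 (-1.10, adjusted p = 0.00161) and the AP-1 member Jund (-0.77, adjusted p = 0.000444) were lower. Calls were lost for Fosb without control 03, control 05, SD 02 or SD 04 (0.0669 to 0.147) and for Fosl2 without SD 02 or SD 04 (0.055 to 0.0628). Fos had 1195, 1865 and 2519.9 in controls and 1555, 1437 and 1616 after SD (adjusted p = 0.532), and the SD libraries lay inside the range of the controls. Arc, a synaptic capsid-like protein, had 6252, 11158 and 18696 in controls and 22257, 21168 and 20261 after SD (log2 fold change 0.96, adjusted p = 0.0527). All SD libraries of Arc were above all controls, which spread from 03 to 05 by more than the SD libraries did, and in the joint fit with Xist Arc was called (2.00, adjusted p = 0.000255).

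Most secreted and synaptic effectors of activity rose. Of 18 members 12 were called higher and 1 lower, Nptxr, with a median log2 fold change of 0.41, and 13 higher and 1 lower in the joint fit with Xist. Inhba, the activin A subunit (chr13:16011851-16031621), had 253, 213 and 213 in controls and 623, 519 and 742 after SD (log2 fold change 1.46, SE 0.14, adjusted p = 0.000614). Scg2, a granule protein cleaved into neuropeptides (chr1:79434669-79440120), had 8078, 8288 and 9033 in controls and 19891, 15446 and 19639 after SD (log2 fold change 1.11, SE 0.10, adjusted p = 0.00061). Homer1, a postsynaptic scaffold (chr13:93299635-93405129), had 7899, 8022 and 7987 in controls and 13686, 11558 and 13533 after SD (log2 fold change 0.69, SE 0.07, adjusted p = 0.000792). The controls of Homer1 were nearly equal, and SD 03 was the lowest SD library in all 3 genes. Ptgs2, the inducible cyclooxygenase (1.03, adjusted p = 0.0069), and Bdnf, a growth factor of synapses (0.76, adjusted p = 0.00726), were higher too. Of 10 dual-specificity phosphatases, which switch off MAP kinases, 1 was higher and 2 were lower, and 5 higher and 1 lower in the joint fit with Xist. In the main fit the 30% called in either direction was near the 27.4% over all genes. Without SD 02 or SD 04 the list gave 0 higher and 1 lower, and without control 05 it gave 3 and 1. Dusp4 had 299.9, 405 and 481 in controls and 731, 559 and 778 after SD (adjusted p = 0.0122), while Dusp2 (-0.77, adjusted p = 0.0375) and Dusp8 (-0.39, adjusted p = 0.00377) were lower. With 1 library left out, calls ended for Dusp4 without SD 02 or SD 04 (0.0506 to 0.0656) and for Dusp2 without control 04, control 05, SD 02, SD 03 or SD 04 (0.0618 to 0.125).

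Most genes of cholesterol synthesis and uptake fell. The pathway makes sterol from acetyl-CoA by way of mevalonate and is adjusted by sterol-sensing regulators. Of 23 members 13 were called lower and 1 higher, with a median log2 fold change of -0.31, and 3 higher and 10 lower in the joint fit with Xist. Mvk, mevalonate kinase (chr5:114444269-114460591), had 839, 734 and 814 in controls and 458, 561 and 432 after SD (log2 fold change -0.72, SE 0.11, adjusted p = 0.00254). Mvd, mevalonate diphosphate decarboxylase (chr8:122433601-122443422), had 854, 910.4 and 998 in controls and 498, 608 and 482 after SD (log2 fold change -0.80, SE 0.11, adjusted p = 0.00147). In both genes SD 03 was the highest SD library and lay below all controls. Insig1, which holds back the sterol regulators, fell as well (-0.63, adjusted p = 0.00186). The 1 higher member was Ebp, a sterol isomerase (0.36, adjusted p = 0.00676).

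Of 15 genes of glucose, glycogen and lactate use, 2 were called higher and 3 lower, and 3 higher and 2 lower in the joint fit with Xist. In the main fit 33.3% were called in either direction, against 27.4% over all genes. Pfkfb3, an activator of glycolysis (chr2:11471433-11554077), had 1355, 1459 and 1715 in controls and 2949, 2977 and 2793 after SD (log2 fold change 0.95, SE 0.09, adjusted p = 0.00061). Ppp1r3c, which promotes glycogen synthesis, was higher (0.42, adjusted p = 0.012). The lactate transporters Slc16a3 (-1.11, adjusted p = 0.00787) and Slc16a1 (-0.73, adjusted p = 0.0426) and the brain glycogen phosphorylase Pygb (-0.35, adjusted p = 0.0071) were lower. Leaving out 1 library ended the calls of Ppp1r3c without SD 02 (0.0605) and of Slc16a1 without control 04, control 05, SD 02 or SD 04 (0.0696 to 0.172). Adenosine builds up in the waking brain and acts on a family of receptors. Of 10 genes of the list 1 was called higher and 2 lower, as in the joint fit with Xist. The 30% called in either direction was near the 27.4% over all genes. Adora1, the inhibitory receptor of cortex (chr1:134199223-134235431), rose from 12135, 10739.8 and 12897 to 19974, 17848 and 17374 (log2 fold change 0.63, SE 0.09, adjusted p = 0.00161). Adora2b, the low-affinity receptor (chr11:62248984-62266453), fell from 151, 151 and 176 to 73.9, 72.4 and 88.3 (log2 fold change -1.02, SE 0.16, adjusted p = 0.00261). Adk, which phosphorylates adenosine, was lower (-0.25, adjusted p = 0.0312), with the call lost without control 04, control 05, SD 02 or SD 04 (0.0554 to 0.108).

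Within the interleukin-1 family and its signaling chain, 6 of 29 measured genes were called higher and 0 lower at limma's adjusted p of 0.05, while 9 had an unadjusted p under 0.05. DESeq2 and edgeR each called 5 higher and 0 lower, and the joint fit with Xist gave 6 higher and 0 lower. The share called higher, 20.7%, compares with 14.1% over all genes, and the median log2 fold change was 0.11. The share called in either direction, also 20.7%, was below the 27.4% over all genes. Il1rap, the locus of the deleted isoform (chr16:26581704-26730117), had 1540.1, 1599.7 and 1471 in controls and 2008, 1872 and 1870.3 after SD (log2 fold change 0.32, SE 0.06, adjusted p = 0.00694). All SD libraries were above all controls. Il1r1, the signaling receptor that Il1rap joins (chr1:40225080-40317257), had 251, 315 and 353 in controls and 438, 583 and 479 after SD (log2 fold change 0.71, SE 0.15, adjusted p = 0.0102). Here too the groups did not overlap. Il1rl2, the receptor of interleukin-36, was low, with 12.7, 25.7 and 21.97 in controls and 42.97, 43.8 and 34.5 after SD (adjusted p = 0.0362). Il1rn, the receptor antagonist, was at 0 in the controls and at 0.754, 1.27 and 3.45 after SD (adjusted p = 0.0488), so that all its SD values lay near the limit of detection. The adaptor Myd88 (0.48, adjusted p = 0.0213) and the kinase Irak2 (0.35, adjusted p = 0.0377) were the remaining 2. Calls were lost for Il1rl2 without control 03, control 05, SD 02, SD 03 or SD 04 (0.0536 to 0.121), Il1rn without control 03, control 04, control 05, SD 02, SD 03 or SD 04 (0.0551 to 0.188), Myd88 without control 04, SD 03 or SD 04 (0.0602 to 0.0791) and Irak2 without control 04, control 05, SD 02 or SD 04 (0.0524 to 0.139), so Il1rap and Il1r1 were the only 2 of the 6 called in every such fit. The number of members called higher was 2 without SD 04, 3 without control 05, SD 02 or SD 03, 4 without control 04 and 5 without control 03.

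Of 22 genes linked to peptidoglycan, the cell wall polymer of bacteria, 5 were called higher and 3 lower, and 6 higher and 3 lower in the joint fit with Xist. In the main fit 36.4% were called in either direction, against 27.4% over all genes (14.1% higher and 13.3% lower). The study plotted this list for the wild-type libraries of the same experiment, so its direction is not independent evidence. Pglyrp1, a secreted protein that binds peptidoglycan (chr7:18871331-18890459), had 137, 117 and 185 in controls and 234, 270.1 and 264 after SD (log2 fold change 0.83, SE 0.18, adjusted p = 0.00992). H2-T24, a nonclassical class I gene (chr17:36005695-36020560), had 537, 528 and 563 in controls and 1130.1, 1056 and 1033 after SD (log2 fold change 0.98, SE 0.07, adjusted p = 0.000444). Ssc5d, a soluble scavenger receptor (chr7:4925785-4944826), had 195, 177 and 159 in controls and 325, 308 and 288 after SD (log2 fold change 0.79, SE 0.12, adjusted p = 0.00245). Without SD 03 the list gave 4 higher and 5 lower. No groups overlapped in these 3 genes, and Nfil3 and Myd88 made up the 5. The 3 lower members were Hspbp1, described above, and the microglial receptors Trem2 and Cx3cr1. Trem2, which senses lipid and debris (chr17:48346401-48354147), fell from 444, 399 and 468 to 180.2, 176 and 227 (log2 fold change -1.17, SE 0.13, adjusted p = 0.000925), and Cx3cr1, the fractalkine receptor, was lower by less (-0.37, adjusted p = 0.0128). Of 10 markers of microglia limma called 5 lower and 0 higher (6 at an unadjusted p under 0.05), as did DESeq2 and edgeR, 3 lower without control 04, and 4 lower in the joint fit with Xist. Their summed level was 18467 to 19312 in controls and 13941 to 16721 after SD, without overlap. Csf1r (-0.39, adjusted p = 0.0205) and C1qc (-0.27, adjusted p = 0.0279) were among the lower markers besides Trem2 and Cx3cr1, with calls lost for Csf1r without control 04 (0.0668) and for C1qc without control 04, control 05, SD 02 or SD 03 (0.0553 to 0.0983). In bulk tissue, fewer cells of a type and less RNA per cell cannot be told apart.

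Of 21 subunits of AMPA, NMDA and GABA-A receptors, 1 was called higher and 3 lower, and 1 higher and 2 lower in the joint fit with Xist. In the main fit the 19.0% called in either direction was below the 27.4% over all genes. Only 1 was called lower without control 04 or SD 02, and 3 were called higher without SD 03. Gabra3, of the inhibitory GABA-A receptor, was higher (0.30, adjusted p = 0.0138). Gabrd, the extrasynaptic delta subunit (chr4:155384980-155398112), had 3791, 4898 and 5404 in controls and 2702, 3535 and 2509 after SD (log2 fold change -0.69, SE 0.15, adjusted p = 0.0118), and Gabrg1 was lower (-0.52, adjusted p = 0.00937). With 1 library left out, calls ended for Gabrd without control 04 or SD 02 (0.0515 to 0.0649). Myelin genes rested on 1 control. Of 16 members, limma called 0 higher and 2 lower, Opalin and Cnp, and 4 had an unadjusted p under 0.05. Cnp, an enzyme of myelin (chr11:100574904-100591729), had 8949.6, 4967 and 5967 in controls and 3219, 4916 and 3759.9 after SD (log2 fold change -0.72, SE 0.21, adjusted p = 0.0375), with control 03 far above the rest. Opalin, a membrane glycoprotein of oligodendrocytes, had 528, 279 and 310.3 in controls and 118, 280.3 and 168 after SD (adjusted p = 0.0495), and its groups overlapped. The summed level of the list was 138916 in control 03, 60902 and 81502 in controls 04 and 05, and 78921 to 116730.0 after SD. Without control 03, 4 members were called higher and 0 lower, and in the joint fit with Xist 0 were higher and 7 lower, so the direction of this list depended on the controls used. Leaving out 1 library ended the calls of Opalin without control 03, control 04, control 05, SD 02 or SD 04 (0.066 to 0.183) and of Cnp without control 03, control 05, SD 02 or SD 04 (0.0572 to 0.158). Among 8 genes of oligodendrocyte precursors, Bcas1 (0.74, adjusted p = 0.0488) and Tnr (0.48, adjusted p = 0.0146) were higher and the lineage factor Olig1 (-0.49, adjusted p = 0.0125) was lower, while the joint fit with Xist gave 0 higher and 2 lower. Calls were lost for Bcas1 without control 04, control 05, SD 02, SD 03 or SD 04 (0.0856 to 0.144), Tnr without control 04 or SD 02 (0.0588 to 0.0601) and Olig1 without SD 02 (0.0638).

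Cytosolic ribosomal proteins were called lower more often than higher, 34 against 10 of 84 measured genes, with a median log2 fold change of -0.12, and 8 higher and 27 lower in the joint fit with Xist. Rpl38 (chr11:114668524-114672331) fell from 2193, 2445 and 2332 to 869, 1352 and 1202 (log2 fold change -1.05, SE 0.14, adjusted p = 0.00166). Rps27a (chr11:29545846-29548109), a fusion with ubiquitin, fell from 3561, 3803 and 4295 to 1659, 2206 and 2029.7 (log2 fold change -0.99, SE 0.11, adjusted p = 0.000938). In both, SD 02 was the lowest of the SD libraries. Rps24 (chr14:24487125-24496959) rose from 7539, 7448 and 7300.0 to 12858, 13149 and 13728 (log2 fold change 0.83, SE 0.05, adjusted p = 0.000444), and Rpl30 was listed at only 10.1, 5.14 and 8.24 in controls and 20.4, 22.9 and 20.01 after SD (adjusted p = 0.013). The levels of Rpl30 lay far below those of its list, and ribosomal protein genes share sequence with pseudogenes, 19.7% of 100-base stretches in Rpl38, 17.9% in Rps27a, 2.35% in Rps24 and 5.91% in Rpl30, so their counts are uncertain. Subunits of oxidative phosphorylation showed a like split, 33 lower and 10 higher of 82, with a median of -0.19, and 10 higher and 26 lower in the joint fit with Xist. Besides Atp5e, the complex I subunit Ndufa2 fell from 1788, 1829 and 1919.8 to 609, 886 and 763 (log2 fold change -1.31, SE 0.12, adjusted p = 0.00061). The complex III subunit Uqcrb (chr13:66900617-66905378) rose from 1894, 2009 and 1993 to 3796, 3608 and 3656 (log2 fold change 0.91, SE 0.06, adjusted p = 0.000444), and the complex I subunit Ndufa12 was higher (0.70, adjusted p = 0.00774). In Uqcrb the SD libraries were nearly equal. Leaving out 1 library gave as few as 6 higher ribosomal proteins (without SD 04) and 21 lower oxidative phosphorylation subunits (without control 04). With only the libraries without Xist reads, the AcPb-/- control is 1 library taken to vary like the other groups. In that fit the median log2 fold change was -0.17 over ribosomal proteins and -0.16 over oxidative phosphorylation subunits. With the Xist term in the 6 libraries, limma called 3 ribosomal proteins higher and 9 lower (median -0.16). That fit called 6 oxidative phosphorylation subunits higher and 7 lower (median -0.16).

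Translation initiation factors leaned the other way, with 17 called higher and 7 lower of 52 (median log2 fold change 0.04), and 16 higher and 4 lower in the joint fit with Xist. Without SD 04 the count was 11 higher and 5 lower, without control 04 or SD 02 it was 12 and 3, and without control 05 it was 12 and 4. Eif5b, which joins the ribosomal subunits (chr1:37998010-38055579), had 3969.9, 4075 and 4105 in controls and 7439.7, 5659 and 6439 after SD (log2 fold change 0.68, SE 0.09, adjusted p = 0.00161). Eif2s1, the target of the stress kinases of translation (chr12:78861819-78887010), had 1477, 1549.9 and 1576 in controls and 2353, 2124 and 2484 after SD (log2 fold change 0.59, SE 0.07, adjusted p = 0.00109). Eif3f (-0.77, adjusted p = 0.00061) and Eif6 (-0.75, adjusted p = 0.00162), which keeps the subunits apart, were lower. None of these 4 genes overlapped between groups. Of 19 cytosolic tRNA synthetases, which charge tRNA with amino acids, 6 were called higher and 3 lower, and 5 higher and 2 lower in the joint fit with Xist. Tars, for threonine (0.48, adjusted p = 0.00223), and Rars, for arginine (0.26, adjusted p = 0.0256), were the highest, and Vars, for valine (-0.68, adjusted p = 0.000734), and Lars, for leucine (-0.41, adjusted p = 0.00155), the lowest. Only 2 were called higher without control 04, SD 02 or SD 04, and 3 without control 03 or 05. The call of Rars was lost without control 03, control 04, control 05, SD 02 or SD 04 (0.0514 to 0.0987).

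Markers of the cells that a cortical sample holds showed no single direction. In the main fit 27.4% of all genes were called in either direction. The share of markers called was 50% in endothelium, 37.5% in excitatory neurons and 33.3% in interneurons. It was below that of all genes in thalamic neurons (25%), astrocytes (22.2%), border macrophages (16.7%) and meningeal fibroblasts (14.3%). Of 8 markers of cortical excitatory neurons, Neurod6 (chr6:55677822-55681263), a transcription factor, rose from 2403, 2249 and 1987 to 4882, 4101 and 5354 (log2 fold change 1.11, SE 0.11, adjusted p = 0.00061). Fezf2, of deep layers, was higher (0.75, adjusted p = 0.0355) and Cux2, of upper layers, lower (-0.57, adjusted p = 0.0112), and the summed level was 295500.0 to 343707 in controls and 298915 to 344877 after SD. All 8 had reads in every library, as the labelled tissue would have. Of 6 interneuron markers Lhx6 (0.54, adjusted p = 0.00295) and Gad2 (0.26, adjusted p = 0.0354) were higher. Of 9 astrocyte markers Aldh1l1 (-0.35, adjusted p = 0.0218) and Sox9 (-0.35, adjusted p = 0.0139) were lower, and the sums overlapped. Endothelial markers split, with Ly6c1 (0.61, adjusted p = 0.00455), Flt1 (0.41, adjusted p = 0.00907) and Pecam1 (0.28, adjusted p = 0.0321) higher of 8 and Cldn5, a tight junction protein of the blood-brain barrier, lower, from 1869, 1907 and 1769 to 919, 1336 and 1035 (log2 fold change -0.77, SE 0.12, adjusted p = 0.00298). F13a1, 1 of 6 markers of border macrophages, was higher (0.68, adjusted p = 0.0266), and Col1a1, 1 of 7 of meningeal fibroblasts, was lower (-0.58, adjusted p = 0.0425). Prkcd, 1 of 4 markers of thalamic neurons, was higher (0.63, adjusted p = 0.00231), and of 9 markers of striatal neurons limma, DESeq2 and edgeR each called 0, with 2 at an unadjusted p under 0.05 in limma, while limma called 1 higher without control 03 and 1 lower without SD 04. The thalamic markers summed to 2380.4 to 2921 in controls and 3102 to 3464 after SD, without overlap, and 2 of them were called higher without control 05. Of 5 red blood cell markers, 4 globin genes were at 0 in all 6 libraries. The joint fit with Xist called 1 excitatory marker higher and 2 lower, 3 interneuron markers higher and 2 astrocyte markers lower. It called 1 endothelial marker higher and 1 lower, and 3 border macrophage and 2 thalamic markers higher. Among fibroblast, striatal, choroid plexus, neutrophil and red blood cell markers it called 0. Fezf2, Flt1, Pecam1 and Col1a1 were not called in that fit. With 1 library left out, calls ended for Fezf2 without control 04, control 05, SD 02 or SD 04 (0.0945 to 0.143), Cux2 without control 04 (0.0501), Gad2 without control 03, control 04, control 05, SD 02 or SD 04 (0.0523 to 0.122), Aldh1l1 without control 04, control 05, SD 02 or SD 04 (0.0508 to 0.0942), Sox9 without control 04 (0.0575), Pecam1 without control 03, control 04, control 05, SD 03 or SD 04 (0.0573 to 0.0881), F13a1 without SD 02, SD 03 or SD 04 (0.0506 to 0.11) and Col1a1 without control 03, control 04, control 05, SD 02 or SD 03 (0.0605 to 0.121).

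Whether SD acted differently without AcPb was tested as the interaction of SD with genotype, in 1 limma fit of the 12 libraries. Of 20978 genes 0 (0%) passed an adjusted p of 0.05, the smallest being 0.986, and 839 (4.00%) had an unadjusted p under 0.05. DESeq2 called 1 gene, Polr2k, and edgeR 0. Without control 03 of the AcPb-/- mice, limma called 9 genes, with an interaction above 0 in 8 of them. In wild-type mice, 5186 of 20417 genes (25.4%) were called between SD and control libraries. Called in both genotypes were 3871 genes, 68.7% of those called in AcPb-/- mice and 74.6% of those in wild-type mice. Of these, 3870 moved the same way. Of 5631 genes called in AcPb-/- mice and measured in wild-type mice, 5570 (98.9%) had the same sign in both. The log2 fold changes of the 2 genotypes, which share no library, had a Pearson correlation of 0.82 and a Spearman correlation of 0.83 over the 16074 genes that averaged 10 or more. This is a description only, since both control groups hold 1 library without and 2 with Xist reads. Depth also followed treatment in wild-type mice, with 32870075 to 41615582 reads on genes in controls and 58770286 to 71775967 after SD. The part of depth in the likeness of the genotypes was not tested.

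The 5 genes with the smallest interaction p were Mir6940, Mgst2, Sox13, Begain and Kcnj5, none past the threshold. Sox13, a transcription factor (chr1:133382303-133424377), had 458, 485 and 503 in AcPb-/- controls and 313, 337 and 289.8 after SD, and 388, 407 and 389.7 in wild-type controls 01, 02 and 03 and 403, 395 and 369.5 in wild-type SD 01, 02 and 04 (interaction -0.60 on the log2 scale, SE 0.12, adjusted p = 0.986). The AcPb-/- groups did not overlap and the wild-type groups did. Begain, a postsynaptic density protein (chr12:109032187-109068217), had 7808, 7619 and 7399 in AcPb-/- controls and 5611, 5483 and 5427 after SD, and 7076, 6723 and 6391 and 7304, 6514 and 6070.4 in the wild-type libraries (interaction -0.44 on the log2 scale, SE 0.09, adjusted p = 0.986). Its fall in AcPb-/- mice was not called after correction for GC content and transcript length (log2 fold change -0.12, adjusted p = 0.164). Mgst2, a microsomal glutathione transferase, was the 1 gene called in opposite directions, and its counts were low. It had 1.27, 0 and 1.37 in AcPb-/- controls and 3.77, 2.54 and 5.52 after SD, and 7.82, 4.35 and 8.07 and 2.08, 0.856 and 1.52 in the wild-type libraries (interaction 3.08 on the log2 scale, SE 0.58, adjusted p = 0.986). Its call in AcPb-/- mice was lost with any 1 of the 6 libraries left out (adjusted p 0.0509 to 0.16). Kcnj5, an inward rectifier potassium channel, had 49.4, 25.7 and 31.6 and 45.2, 46.4 and 68.99 in AcPb-/- mice and 69.1, 71.02 and 50.7 and 31.2, 29.1 and 17.5 in wild-type mice, and Mir6940 had at most 3.43 in any library. Polr2k, a small subunit shared by RNA polymerases (chr15:36174010-36177010), had 192, 123 and 217 in AcPb-/- controls and 332, 370.5 and 370.5 after SD, and 469, 412 and 447 and 428, 421 and 491 in wild-type mice (DESeq2 interaction 0.98, adjusted p = 0.0486, and limma's adjusted p = 0.986). The AcPb-/- controls of Polr2k were below all other libraries.

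Several chaperones, named here after both values were seen, had larger fold changes in AcPb-/- than in wild-type mice, but no difference between genotypes passed the threshold. The log2 fold change of Hspa5 was 0.87 against 0.57, that of Hsp90b1 1.06 against 0.81 and that of Chordc1 0.89 against 0.60, with interactions of 0.30 (SE 0.18), 0.25 (SE 0.10) and 0.29 (SE 0.11), all at limma's adjusted p of 0.986. The median over the ER list was 0.29 against 0.21 and over the heat shock list 0.42 against 0.30. Trem2 fell by 1.17 in AcPb-/- mice and by 0.67 in wild-type mice (interaction -0.51 on the log2 scale, SE 0.16, adjusted p = 0.986), and Cldn5 by 0.77 and 0.38 (interaction -0.39 on the log2 scale, SE 0.15, adjusted p = 0.986). Plin4 (2.77 and 2.91), Dbp (-1.59 and -1.77) and Il1rap (0.32 and 0.28) had near values in both genotypes, with interactions of -0.15 (SE 0.47), 0.17 (SE 0.42) and 0.03 (SE 0.08). The median SE of an interaction was 0.12 among genes averaging 100 or more, and the interactions of these genes did not pass the threshold, which does not show that the genotypes responded alike.

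**Figure D5:**
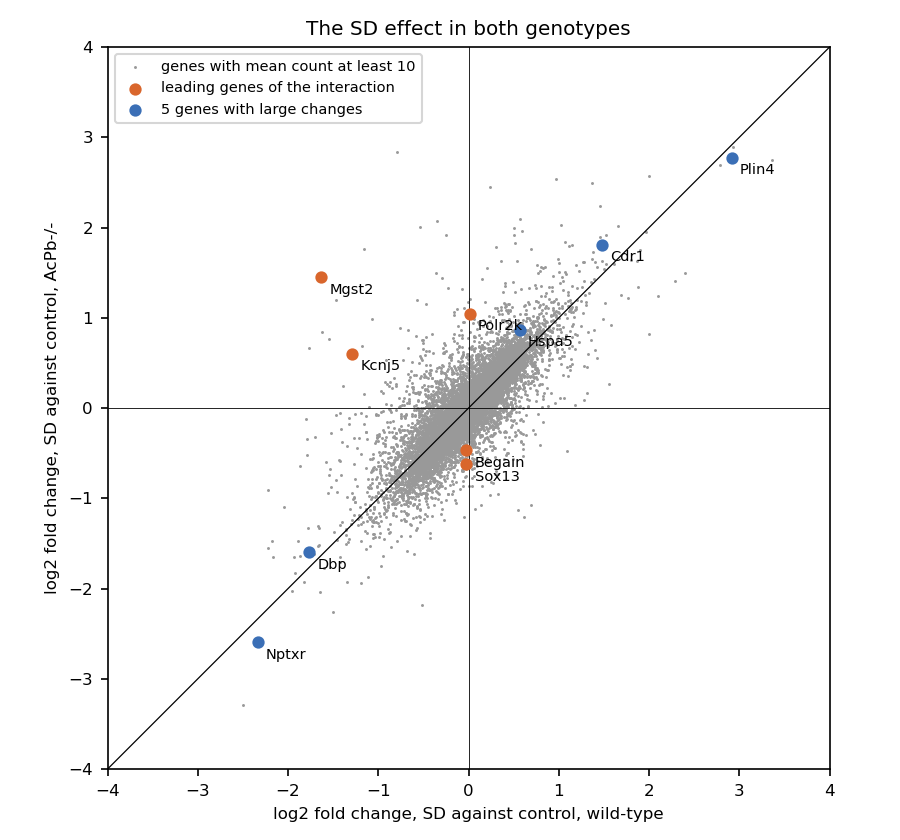
Log2 fold change of SD against control in wild-type (x axis) and AcPb-/- mice (y axis) for genes averaging 10 or more normalized counts, with the line of equal change. Both axes stop at 4, which leaves out 9 genes. Most genes lie along the line, as do Plin4, Dbp, Nptxr, Cdr1 and Hspa5 (blue), while Mgst2, Kcnj5, Polr2k, Begain and Sox13 (orange) lie off it, Mgst2 being plotted although its mean was lower.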

How the data were processed

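Somatosensory cortex RNA of 6 AcPb-/- and 6 wild-type mice was analysed from 2 deposited tables, 1 per genotype, each with 3 control and 3 SD columns. Of the 16 samples in the labels, 4 had no column used here. According to the study's methods and the submitters' processing notes, the authors made stranded mRNA libraries, aligned reads to mm10 with HISAT2 2.2.1 and normalized with DESeq2 1.31.16. The methods name HTSeq and the notes featureCounts as the counter, and the strand setting is not given in the sources used here. The deposited values are a signal, read counts per gene divided by the size factor of each library. All 293052 values (100%) came back as whole reads within 0.01, which gave the depths. The tables also hold the authors' means, log2 fold changes, standard errors, Wald statistics and p-values, and none of these was used.

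The planned main test was limma 3.58.1 (R 4.3.3) with a trended variance, and edgeR was to replace it only had the columns held raw counts. It was fitted to log2(normalized count + 1) of the 20574 genes with a read in the 6 AcPb-/- libraries. For the interaction, the limma fit took 20978 genes in all 12 libraries. Adjusted p are Benjamini-Hochberg values over all genes tested, and the threshold was 0.05. Fold changes are on this scale, which understates those of low genes. Replicates of each pair differed by more than sampling noise. edgeR 4.0.16 and DESeq2 1.42.0 were run on the recovered reads. The computations were tested on simulated data. Coordinates, GC content and lengths came from GENCODE M21 (GRCm38), where 23376 genes (95.7%) matched by symbol.

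Members and gene lists were chosen with earlier results of these data known. Named genes are the 10 highest and 10 lowest called genes with a mean of at least 100 and an official symbol, apart from Xist and Y-linked genes, the 2 highest and 2 lowest called members of each list with other list members, Il1rap and the 5 genes with the smallest interaction p. Some list members count in the totals of their list and are not reported by themselves here. Alternatives changed the pseudocount, the filter on low values, the trend, the centring, the depth, the samples in the fit, a term for Xist, a replicate block, GC content and length, the tool, the threshold and each library in turn.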

Additional observations from a re-analysis of the deposited data

How the results depend on the processing

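Of 5633 genes called (2892 higher, 2741 lower), 3608 (1785 higher, 1823 lower) were called without a variance trend, 2656 (1342 and 1314) at an adjusted p of 0.01, 2080 (1125 and 955) with only the libraries without Xist reads, and 1672 (903 and 769) with a term for Xist in the 6 libraries. Among libraries without Xist reads the AcPb-/- controls are 1 library, taken to vary like the other groups. Of the fits just named, only the one with the Xist term in the 6 libraries left fewer degrees of freedom than the main fit. Leaving out 1 library or adding a replicate block also left fewer. With 1 library left out the count was 3393 to 5412 (1702 to 2783 higher, 1656 to 2629 lower), lowest without SD 02. The other alternatives gave between 5104 and 6485, with edgeR at 5682 and DESeq2 at 5820. Replicates 03 and 04 occur in both groups. Deviations from the group means correlated at -0.15 and -0.01 between same-numbered libraries, and at -0.37 to 0.30 between the others. With only 2 same-numbered pairs, these values cannot decide whether the numbers pair the samples. A fit with the replicate block, where only those 2 shared numbers bear on SD, called 0 genes, 0 higher and 0 lower, with 4662 at an unadjusted p under 0.05. For the interaction, 0 to 9 genes were called with 1 library left out, 9 without AcPb-/- control 03, and DESeq2 called 1. After correction for GC content and length 4166 of the calls were shared and 52 of the 5633 genes had the opposite sign, and in the joint fit with Xist 4349 and 2. The called genes named in the text kept their sign under every alternative, but 21 of 136 missed the threshold in the joint fit with Xist, 67 with only the libraries without Xist reads and 71 with the Xist term in the 6 libraries. Of genes not called, Per1 turned to -0.033 without control 03 (-0.033 to 0.62 with 1 library left out), and Fos, at a log2 fold change of -0.21, turned to 0.74 in the joint fit with Xist, 0.36 with only the libraries without Xist reads, 0.36 with that term in the 6 libraries, 0.029 with the replicate block and 0.039 without control 05 (-0.50 to 0.039 with 1 library left out), and the cause was not tested. The controls had less depth than the SD libraries, and 3 libraries a group limit the interaction more than the main comparison.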

Other observations

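Genes known from choroid plexus and neutrophils were uneven across libraries. Ttr, a thyroid hormone carrier made by the choroid plexus, had 275, 10.3 and 37.1 normalized counts in controls 03, 04 and 05 and 28.6, 90.9 and 15740.0 in SD 02, 03 and 04. Kl, the antiaging protein of the same epithelium, had 176, 180.0 and 166 in controls and 280, 161 and 1027 after SD. S100a9, a calcium-binding protein of neutrophils, had 29.1, 13.7 and 11.0 in controls and 6.79, 54.0 and 322 after SD. None of the 3 passed the threshold, and SD 04 was the highest library in each.

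Genes that met the interaction threshold only without AcPb-/- control 03 were B3gat2, Cfap36, Foxp2, Gnb4, Nr4a2, Spsb1, Sstr2 and Tmem163, with an interaction above 0, and Igfn1, with one below 0. They were named after their values were seen. Sstr2, a somatostatin receptor, had 880, 540.1 and 522 in AcPb-/- controls and 1423, 1528 and 1665 after SD (log2 fold change 1.29 in AcPb-/- and 0.38 in wild-type mice). Its interaction had an adjusted p of 0.986 with all 12 libraries and 0.0133 without control 03. Nr4a2, an activity-induced nuclear receptor, had 3324, 1485 and 1041 in controls and 2643, 2605 and 3584 after SD. Foxp2, a transcription factor of deep cortical layers, had 718, 223 and 176 in controls and 548, 672 and 652 after SD. Cfap36 had 3190.3, 1824 and 1855 in controls and 4804, 4420 and 4864 after SD. Control 03 was the highest control in all 4 genes, and in Foxp2 it lay above every SD library.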
